A study of Bos taurus with 6 samples.

Results

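The 7 sirtuin genes, SIRT1 to SIRT7, were taken by symbol from the read counts of longissimus thoracis muscle (LT) of 6 Korean cattle (Hanwoo) steers, and each was found once among 23015 gene rows. All 7 passed the filter on low counts, as did 15039 rows in all. Three-prime RNA libraries, 1 per steer, had been made from 3 steers with a high number of fine marbling particles (NFMP), labelled 3-8, 10-8 and 10-9 and aged 32.5 to 34.5 months, and from 3 steers with a low NFMP, labelled 3-1, 3-3 and 10-16 and aged 33.7 to 37.8 months. Marbling particles are the specks of fat seen in a cut rib eye, and the steers of both groups were raised conventionally on commercial feed. The libraries held between 16283873 and 17192750 counted reads. All 7 muscle fibre markers examined (ACTA1, CKM, TTN, MYH1, MYH2, MYH7 and TNNT3) were detected, and they summed to between 1540150 and 1905370 normalized counts in a steer, counts being normalized by scaling to a common library size.

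Sirtuins are enzymes that use nicotinamide adenine dinucleotide (NAD+) to take acetyl and longer acyl groups off lysines of other proteins, and so tie protein activity to the energy state of the cell. SIRT1, SIRT6 and SIRT7 work mainly in the nucleus, SIRT2 mainly in the cytosol, and SIRT3, SIRT4 and SIRT5 in mitochondria, which are abundant in muscle fibres. In fat and muscle the family is known for its part in fatty acid oxidation, glucose use and the making of adipocytes.

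The sirtuins together received between 2683 and 3531 reads in a steer, and the range of the high-NFMP steers (2860 to 3531) overlapped that of the low-NFMP steers (2683 to 3495). SIRT5, the mitochondrial enzyme that removes succinyl, malonyl and glutaryl groups, was the most counted member in every steer and held between 41.8% and 54.4% of the family's reads. SIRT2, a deacetylase whose known targets include tubulin, came second in all 6 steers with 23.4% to 31.7%. At the other end, SIRT7, a deacetylase tied to ribosomal RNA transcription, came sixth in all 6 steers and SIRT6, a chromatin enzyme known for DNA repair and control of glycolysis, came last, with only 12 to 29 raw counts. In this 3′ method a transcript gives about 1 fragment whatever its length, so these are orders of counts. Transcript lengths were not used here.

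The middle of the order changed with the group. In each of the 3 high-NFMP steers SIRT4 took the third place, above both SIRT1, the best studied nuclear deacetylase, and SIRT3, the main mitochondrial deacetylase. In each of the 3 low-NFMP steers SIRT4 took the fifth place, below both. Over the 6 steers SIRT1 was counted between 0.576 and 2.97 times as often as SIRT4, and SIRT4 between 0.55 and 2.01 times as often as SIRT3, so these neighbours in the order did not separate. The other adjacent pairs did, since SIRT5 was above SIRT2, SIRT2 above SIRT1, SIRT3 above SIRT7 and SIRT7 above SIRT6 in 6 of 6 steers. Nor did SIRT1 and SIRT3 separate, with SIRT1 above in 5 of the 6.

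**Figure D1:**
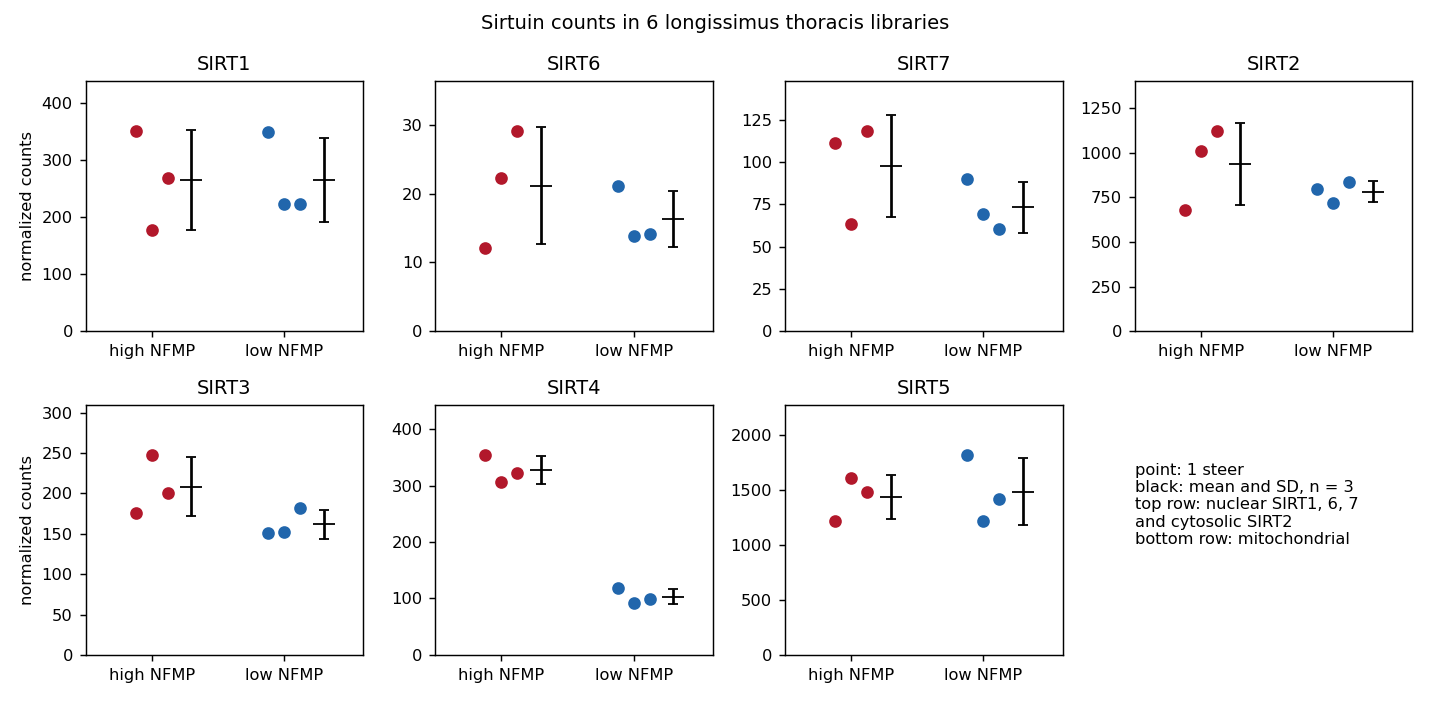
Normalized counts (linear vertical axes from 0, a scale of its own for each gene) of the 7 sirtuins, with 1 point per steer, high-NFMP steers in red, low-NFMP steers in blue, and black marks for the mean and SD of 3 steers. The colours separate for SIRT4, at 307 to 355 against 91.6 to 118, and overlap for the other 6 genes.

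SIRT4 is a mitochondrial sirtuin known to restrain glutamate dehydrogenase, to inhibit the pyruvate dehydrogenase complex by removing lipoyl groups, and to act on malonyl-CoA decarboxylase, which sets how much fatty acid enters mitochondria. In the high-NFMP steers it reached 355 normalized counts in 3-8, 307 in 10-8 and 323 in 10-9. In the low-NFMP steers it reached 118 in 3-1, 91.6 in 3-3 and 99.9 in 10-16. The groups did not overlap, and SIRT4 was the sirtuin with the smallest relative spread among high-NFMP steers, with a coefficient of variation of 7.44%. The means differed by a factor of 3.18, or 1.67 on the log2 scale with a 95% interval of 1.20 to 2.14 (edgeR quasi-likelihood test, adjusted p = 0.00303 by the Benjamini-Hochberg method over every tested row). Only SIRT4 of the 7 sirtuins was past the threshold of an unadjusted p below 0.05 and more than a 2-fold difference, where 3.9% of all tested rows passed in either direction and 2.53% were higher. SIRT4 was likewise the 1 member with an adjusted p below 0.05, against 0.685% of all rows, and the 1 member whose groups did not overlap, against 17.1% of all rows. After quantile normalization with limma the adjusted p of SIRT4 was 0.0906 at a log2 fold change of 1.66. In whole muscle tissue a change in the number of cells of a type and a change in RNA per cell cannot be told apart.

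None of SIRT1, SIRT2, SIRT6 and SIRT7, the sirtuins of the nucleus and cytosol, passed an unadjusted p below 0.05, which 11.5% of all rows did. SIRT1 had 351, 177 and 268 normalized counts in high-NFMP steers 3-8, 10-8 and 10-9, and 349, 223 and 222 in low-NFMP steers 3-1, 3-3 and 10-16. These sets of values covered nearly the same range, and the log2 fold change was 0.0023 (95% interval -0.58 to 0.58). SIRT6 had 12.2, 22.2 and 29.1 against 21.1, 13.9 and 14.1, and at such low counts its log2 fold change of 0.37 had an interval of -0.70 to 1.43, which does not exclude a doubling. For SIRT7, at 97.7 ± 30.0 (SD, n = 3) with a high NFMP and 73.3 ± 15.1 (SD, n = 3) with a low NFMP, the log2 fold change was 0.42 (-0.26 to 1.09). SIRT2 had 679, 1011 and 1122 against 796, 719 and 834, so that its lowest and its 2 highest values were all in high-NFMP steers, and its log2 fold change was 0.26 (-0.18 to 0.70). These differences depended on single steers. SIRT2 was at 0.44 without 3-8 (unadjusted p = 0.0262 by edgeR, adjusted p = 0.271) and 0.13 without 10-9, SIRT6 at 0.64 without 3-8 and 0.085 without 10-9, and SIRT7 at 0.68 without 10-8 (unadjusted p = 0.0468 by edgeR, adjusted p = 0.494) and 0.27 without 10-9.

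The mitochondrial relatives of SIRT4 did not pass either. SIRT3 had 176, 248 and 201 normalized counts in the high-NFMP steers and 151, 152 and 182 in the low-NFMP steers. Here only 10-16 among low-NFMP steers lay above the lowest high-NFMP steer, and the log2 fold change was 0.37 (95% interval -0.13 to 0.86, adjusted p = 0.576 by edgeR). SIRT5 had 1214, 1604 and 1480 against 1819, 1214 and 1419, with the highest value in low-NFMP steer 3-1 and nearly equal lowest values in 1 steer of each group. Its log2 fold change of -0.05 had an interval of -0.47 to 0.37, so a doubling or a halving lay outside it. The log2 fold changes of all 7 sirtuins had a median of 0.37, beside 0.02 for all tested rows, and those of the 6 without SIRT4 had a median of 0.31, which was 0.11 without steer 10-9.

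**Figure D2:**
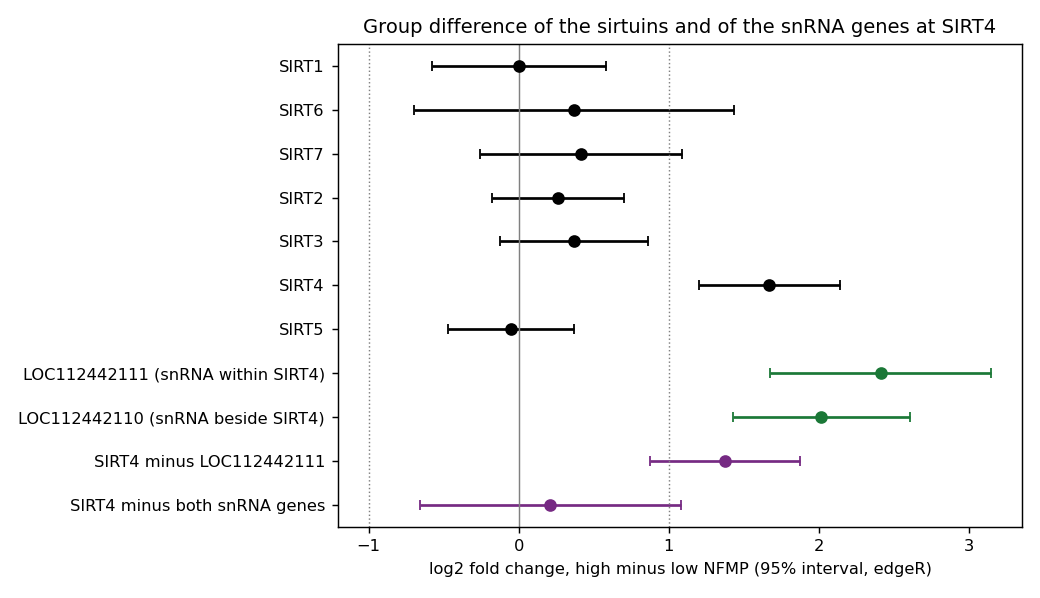
Log2 fold changes of high over low NFMP (horizontal axis, points with 95% intervals from edgeR, dotted lines at a fold change of 2) for the 7 sirtuins in black, for the 2 small nuclear RNA genes at SIRT4 in green, and for SIRT4 after their counts were subtracted in purple. SIRT4 stands at 1.67, the snRNA genes at 2.41 and 2.01, and SIRT4 less both at 0.21.

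Whether SIRT4 moved apart from its relatives was asked within each library, by the log2 ratio of SIRT4 to the summed counts of the other 6 sirtuins, which does not depend on library size. This ratio was -2.84, -3.35 and -3.32 in high-NFMP steers 3-8, 10-8 and 10-9, and -4.78, -4.71 and -4.77 in low-NFMP steers 3-1, 3-3 and 10-16. The SD was 0.28 among the high-NFMP and 0.0397 among the low-NFMP steers, and the groups did not overlap. SIRT4 therefore made up between 8.94% and 12.2% of sirtuin reads at a high NFMP and between 3.52% and 3.69% at a low NFMP. The difference of the mean ratios was 1.58, a factor of 2.99 (two-sided exact permutation test over the 20 assignments, p = 0.1). That p is the smallest that 3 steers against 3 can give, so this test could not pass 0.05.

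The same held against each relative alone. The 6 differences of log2 ratio lay between 1.29 against SIRT7 and 1.72 against SIRT5, with SIRT2 at 1.45, SIRT6 at 1.37, SIRT3 at 1.32 and SIRT1 close to SIRT5. These single denominators were chosen after seeing the data. In none of the 6 ratios did the groups overlap, and each had p = 0.1 by the exact permutation test, before and after Benjamini-Hochberg adjustment over the 6. With SIRT3 and SIRT5 together as the denominator, which keeps the comparison within mitochondrial sirtuins, the difference was 1.67.

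**Figure D3:**
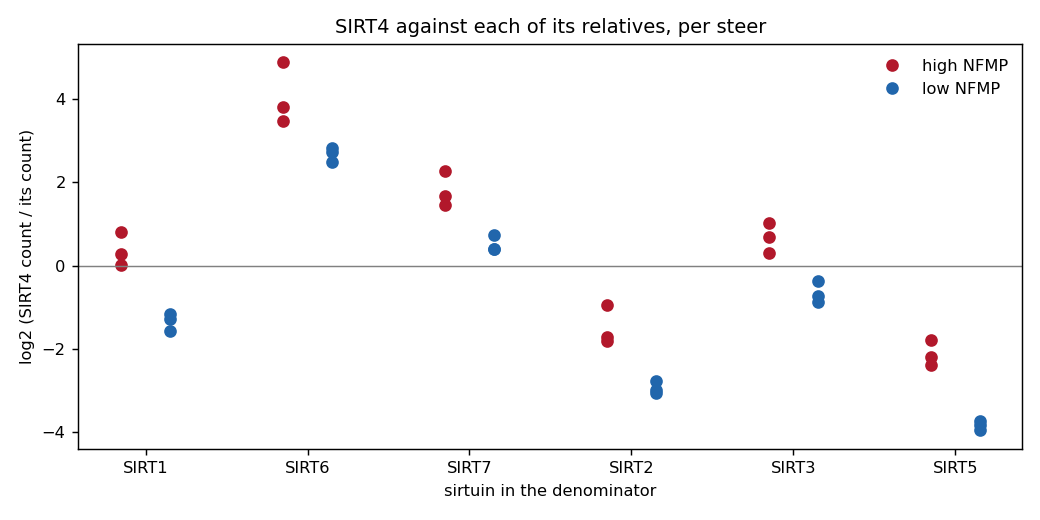
Log2 of the SIRT4 count over the count of each other sirtuin (vertical axis) in each steer, high NFMP in red and low NFMP in blue. In all 6 columns the 3 red points lie above the 3 blue ones, by 1.29 to 1.72 on average.

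SIRT4 lies beside 2 small nuclear RNA (snRNA) genes, which are copies of the short RNAs of the splicing machinery. In RefSeq's genes of the assembly ARS-UCD2.0, LOC112442111 lies within SIRT4 and LOC112442110 lies just outside it. None of the other 6 sirtuins holds an snRNA gene in that table. Among the 3 nearest genes on each side of those 6 there was 1 snRNA gene, LOC112443916 near SIRT5, which had at most 4 counts in a steer and was removed by the filter.

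Both snRNA genes at SIRT4 differed between the groups in the same direction as SIRT4 and by more. Of all 65 tested snRNA genes, 43 (66.2%) were past the threshold and higher at a high NFMP, beside 2.53% of all rows, and the median log2 fold change of the 65 was 1.59, close to that of SIRT4. LOC112442111 had 141, 90 and 112 raw counts in high-NFMP steers 3-8, 10-8 and 10-9, and 31, 17 and 21 in low-NFMP steers 3-1, 3-3 and 10-16, a log2 fold change of 2.41 (95% interval 1.67 to 3.15, adjusted p = 0.00539 by edgeR). LOC112442110 had 183, 119 and 169 raw counts against 45, 41 and 39, a log2 fold change of 2.01 (1.43 to 2.60, adjusted p = 0.00371 by edgeR). After quantile normalization with limma, where no row had an adjusted p below 0.05 and 1657 had an unadjusted one, their adjusted p were 0.0906 and 0.0873. The order of the high-NFMP steers was the same in both snRNA genes as in SIRT4, with 3-8 highest and 10-8 lowest, and among the low-NFMP steers 3-1 was highest in all 3 genes.

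The raw counts of the nested gene equalled 40.3%, 32.6% and 34.8% of those of SIRT4 in the high-NFMP steers and 25.2%, 17.2% and 21.2% in the low-NFMP steers. Those of both snRNA genes together equalled 92.6%, 75.7% and 87.3% against 61.8%, 58.6% and 60.6%. The log2 ratio of SIRT4 to both was accordingly lower at a high NFMP, by 0.49, without overlap, a ratio added after seeing the data (exact permutation test, p = 0.1, the smallest possible). By the methods of the study, reads with multiple alignments entered the counts. The sources used here do not give whether one read could be counted on more than 1 of these genes.

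The 2 subtractions that follow show SIRT4 as if all reads of 1 or both of these snRNA genes had also been counted on it. Reads of other snRNA copies were not taken off, so the subtractions set no limit on such double counting. With the counts of LOC112442111 taken off, SIRT4 kept 209, 186 and 210 raw counts in the high-NFMP steers and 92, 82 and 78 in the low-NFMP steers, and the groups stayed apart with a log2 fold change of 1.37 (95% interval 0.88 to 1.87, adjusted p = 0.0138 by edgeR). With the counts of both taken off, 26, 67 and 41 raw counts were left against 47, 41 and 39. Steer 3-8, which had the most SIRT4 counts of all, then had the fewest, and the groups overlapped. The log2 fold change was 0.21 (-0.66 to 1.08, unadjusted p = 0.614 by edgeR), and the difference of the log2 ratio to the other 6 sirtuins was -0.0052 (exact permutation test, p = 1). The second subtraction takes every read of these 2 snRNA genes to have been counted on SIRT4 too, and how many were was not tested.

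**Figure D4:**
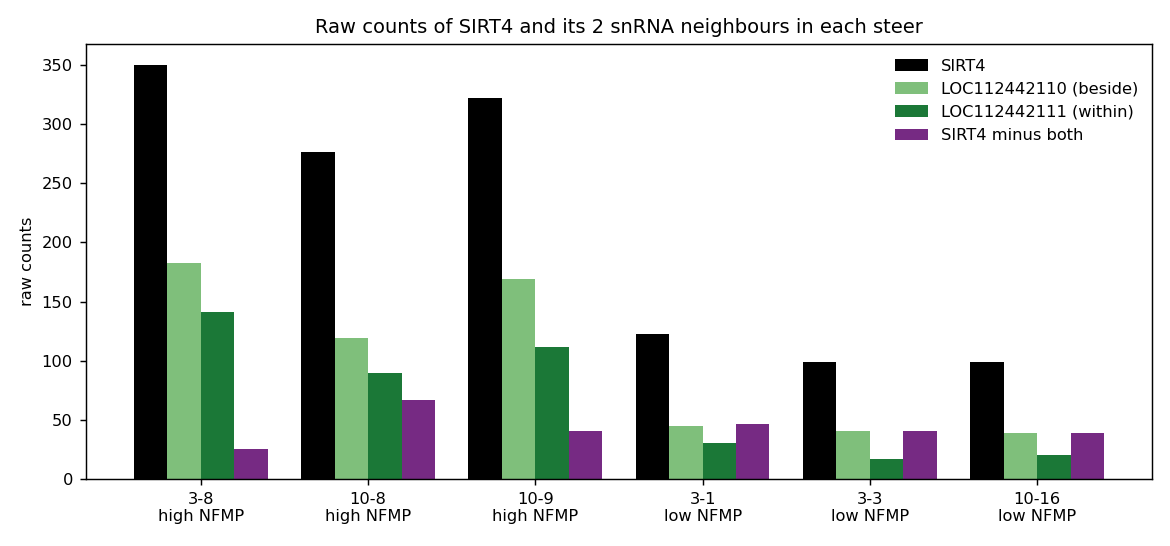
Raw counts (vertical axis from 0) of SIRT4, of the snRNA genes LOC112442110 and LOC112442111, and of SIRT4 less both, in each of the 6 steers. The first 3 bars of each steer are taller in the 3 high-NFMP steers on the left, while the last bar runs from 26 to 67 there and from 39 to 47 in the low-NFMP steers.

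Other genes that hold an snRNA gene were examined after these values were seen. A tested snRNA gene lies within 19 tested protein-coding genes, and of these 19 only SIRT4 itself passed the threshold, in either direction. That is 5.26% of the hosts beside 3.9% of all rows. SIRT4 prompted this look at hosts, so its call was known beforehand, and of the other 18 hosts 0 were called. At 3.9% a set of 18 genes gives little room for a call. In 4 of the other 18, RAD51C, CDH7, NRP2 and TEX14, every nested snRNA gene was itself past the threshold in the high-NFMP direction. This held for 66.2% of all tested snRNA genes. These host genes had log2 fold changes of -0.19, 0.40, 0.68 and -0.21, with unadjusted p of 0.714, 0.301, 0.0182 and 0.293 by edgeR. That of NRP2 was thus below 0.05, as in 11.5% of all rows. In RAD51C the nested snRNA gene had 257% of the counts of its host. Over the 6 steers that share was 59.1% in CDH7, 36.5% in NRP2 and 32.5% in SIRT4. TEX14 holds 4 tested snRNA genes, the one in RAD51C among them, each with 2.24% to 3.62% of its counts.

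The tested protein-coding neighbours of SIRT4 did not pass the threshold. PXN, the focal adhesion protein paxillin, had 596 ± 137 normalized counts (SD, n = 3) at a high NFMP and 756 ± 97.5 at a low NFMP, and differed by -0.34 on the log2 scale (95% interval -0.79 to 0.098). That difference was -0.18 without steer 10-9, -0.53 without steer 3-8 and -0.61 with age as a term (adjusted p = 0.841, 0.265 and 0.552 by edgeR). RPLP0, a ribosomal stalk protein, had 13858 ± 949 against 12552 ± 313, without overlap of the groups, and differed by 0.14 (-0.25 to 0.53). PLA2G1B and MSI1, on the other side, had at most 5 and 3 counts in a steer. The other 2 of the 6 nearest genes, LOC783583 and LOC112441980, were not among the symbols of the counts.

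The profile over the 6 libraries most like that of SIRT4 was looked for among the other 15038 tested rows, by the root mean square difference of log2 values after each gene's mean was taken off. The 5 nearest were TRPC4, a cation channel subunit (0.170), LOC104976020 (0.177), the snRNA gene LOC112446509 (0.184), CEP250, a centrosomal protein (0.190), and LOC112442110 beside SIRT4 (0.193). LOC104976020 had 820 ± 39.1 normalized counts (SD, n = 3) at a high and 321 ± 12.4 (SD, n = 3) at a low NFMP, 1.35 on the log2 scale. The nested LOC112442111 came 113th at 0.415. Of the sirtuins SIRT7 came nearest, at place 1705 with 0.699, and SIRT1 was farthest, at place 6959 with 0.884.

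Sirtuins depend on NAD+, and 75 genes of its supply and use, of sirtuin control and targets, and of the zinc-dependent deacetylases were listed to describe the surroundings of the family. Of 73 found and 64 tested, 1 was past the threshold, which is 1.56% beside 3.9% of all rows, and 18 (28.1%) had groups that did not overlap, beside 17.1% of all rows. That gene was HIC1, a transcriptional repressor known to bind the SIRT1 promoter. Its raw counts were 74, 97 and 111 with a high NFMP (3-8, 10-8, 10-9) and 40, 43 and 35 with a low NFMP (3-1, 3-3, 10-16). The groups did not overlap, and the log2 fold change was 1.37 (SE 0.31, unadjusted p = 0.000562, adjusted p = 0.0661 by edgeR). Its adjusted p was 0.0319 without a filter and 0.00772 with DESeq2, so the side of 0.05 depended on the fit. CCAR2, an inhibitor of the SIRT1 protein, had 78.9 ± 14.6 normalized counts beside 123 ± 26.4, or -0.64 on the log2 scale (adjusted p = 0.41 by edgeR), and RPS19BP1, an activator of SIRT1, had 335 ± 39.7 against 339.8 ± 100.5.

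In the NAD+ supply list, 12 of 14 genes were tested, and by edgeR 0 had an unadjusted p below 0.05 (11.5% of all rows) and 0 an adjusted p below 0.05 (0.685% of all rows). A list of 12 genes gives little room for a call at these shares. The most counted was NMRK2, the muscle nicotinamide riboside kinase, at 10661 ± 6599 normalized counts (SD, n = 3) at a high NFMP and 8040 ± 1344 at a low NFMP, a spread wider than the difference. NAMPT, the enzyme that limits the recycling of nicotinamide, was at 1937 ± 563 against 2258 ± 363. Among other users of NAD+, the poly(ADP-ribose) polymerases and cyclic ADP-ribose enzymes, 7 of 10 were tested and none passed, with TNKS2 (732 ± 150 against 889 ± 166) and TNKS (458 ± 28.7 against 536 ± 20.7) counted most often. PARP3, a polymerase of DNA repair, had 160.5 ± 18.2 against 100.7 ± 50.0, or 0.67 on the log2 scale without overlap of the groups, and was past the threshold at 1.42 with age as a term. CD38, a major NAD+ degrading enzyme of immune and stromal cells, had 2.87 to 11.1 normalized counts in a steer and was not tested.

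None of the 13 nuclear and cytosolic substrates, all tested, passed the threshold. PPARGC1A, the coactivator of mitochondrial genes that SIRT1 deacetylates, had 2849.6, 5121 and 4058 normalized counts in high-NFMP steers 3-8, 10-8 and 10-9 and 2849.6, 1730.4 and 1764 in low-NFMP steers 3-1, 3-3 and 10-16. The lowest high-NFMP steer thus met the highest low-NFMP steer, and the gene counts among the 18 without overlap only by a difference beyond the digits shown. Its log2 difference of 0.92 (SE 0.25, adjusted p = 0.145 by edgeR) was just short of a doubling, and it was 0.75 without steer 10-8. It was past the threshold at 1.12 without steer 3-8, at 1.20 without steer 3-1 and at 1.36 with age as a term (adjusted p = 0.101, 0.0521 and 0.0792 by edgeR). Here too the adjusted p was below 0.05 without a filter (0.0439 by edgeR) and with DESeq2 (0.0294). FOXO1 and FOXO3, transcription factors that sirtuins deacetylate, were the most counted of this list, with log2 fold changes of -0.07 and 0.0015.

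Of 22 mitochondrial substrates, 19 were tested and none passed the threshold, including the known targets of SIRT4. Glutamate dehydrogenase (GLUD1) was at 434 ± 90.0 normalized counts (SD, n = 3) beside 598 ± 50.7 (SD, n = 3), or -0.46 on the log2 scale (adjusted p = 0.407 by edgeR), which was -0.29 without steer 10-9. Malonyl-CoA decarboxylase (MLYCD) was at 249.7 ± 39.7 beside 182 ± 38.9, or 0.45 (adjusted p = 0.49 by edgeR). The pyruvate dehydrogenase subunits PDHA1 and DLAT were at log2 fold changes of -0.09 and -0.26, and MCCC1 and MCCC2, the subunits of methylcrotonyl-CoA carboxylase, at -0.17 and -0.22. SOD2, the mitochondrial superoxide dismutase that SIRT3 activates, was at -0.49, and ACSS1, the mitochondrial acetyl-CoA synthetase that SIRT3 deacetylates, at 0.79 (adjusted p = 0.341 and 0.367 by edgeR). GLUD1, SOD2 and ACSS1 were among 6 of the 64 tested genes of all lists with an unadjusted p below 0.05, which 11.5% of all rows had. Without steer 10-9 none of these 3 genes did, with SOD2 at -0.34 and ACSS1 at 0.53. SDHA, a SIRT3 target of the respiratory chain and the most counted of the list, was at 0.02. The largest difference of the list was that of SLC25A5, at -1.03 (unadjusted p = 0.0561 by edgeR) without overlap of the groups. Its counts were low, at 14.8 ± 7.62 against 30.2 ± 0.958. SLC25A5 was past the threshold at -1.11 with library totals, -1.06 without a filter and -1.24 with limma after quantile normalization. In 4 of the fits with 1 steer left out the number of all listed genes past the threshold rose from 1 to between 2 and 4, through PPARGC1A without 3-8 or 3-1, ACSS1 and SLC25A5 without 10-8, ACSS1 without 10-16, PARP3 without 3-1, and CPS1 and HDAC11 without 3-8.

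Among the zinc-dependent deacetylases HDAC1 to HDAC11, the other large family that takes acetyl groups off lysines, 10 were tested and none passed, with log2 fold changes between -0.25 for HDAC7 and 0.68 for HDAC11 and a median of 0.15. HDAC7 was at -0.57 without steer 3-8 (adjusted p = 0.194 by edgeR), -0.11 without 10-8 and -0.081 without 10-9. HDAC7 and HDAC9 were the most counted, at 3524 and 1192 normalized counts over the 6 steers, beside 1458 for SIRT5. E2F1 and CEBPB, adipogenic factors that the study links to SIRT4 by citing earlier work, were removed by the filter. E2F1 had 5, 2 and 5 counts in the high-NFMP steers and 0, 0 and 1 in the low-NFMP steers, and CEBPB had at most 1.

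**Figure D5:**
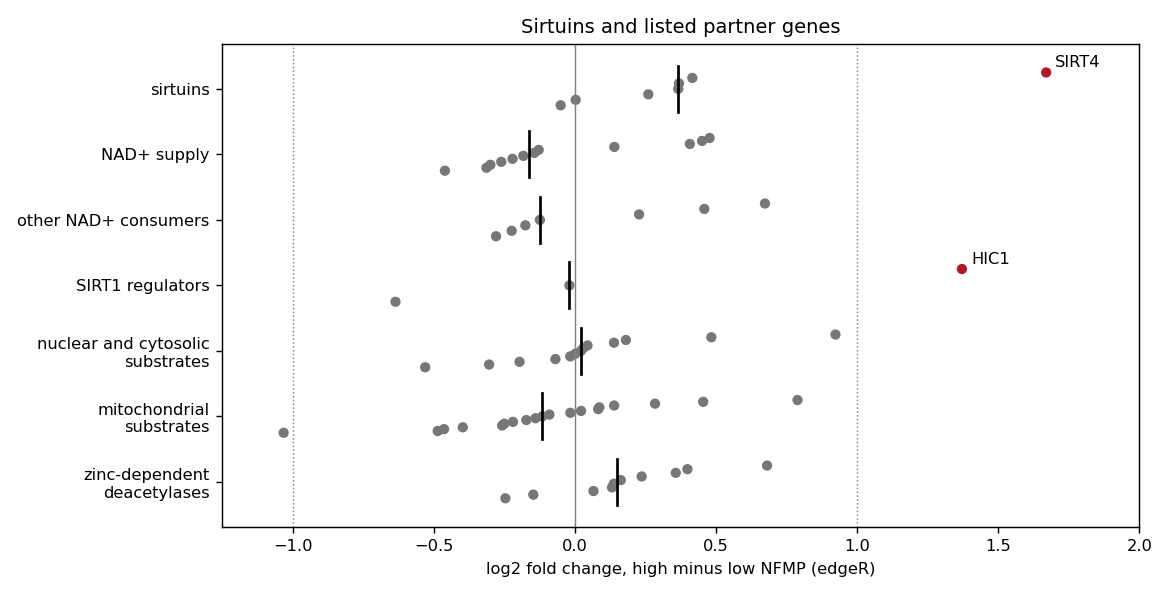
Log2 fold change of high over low NFMP (horizontal axis, dotted lines at a fold change of 2) of each tested sirtuin and listed gene, 1 point per gene, with red for those past the p and fold change threshold and a black bar for the median of a list. The red points are SIRT4 at 1.67 and HIC1 at 1.37, and the medians of the lists other than the sirtuins lie between -0.16 and 0.15.

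Markers of fat were set beside SIRT4, since fat cells lie within the marbled muscle. The 7 adipocyte markers (ADIPOQ, PLIN1, FABP4, CIDEC, LPL, LEP and PLIN4) were all detected and had positive log2 fold changes with a median of 0.61. None passed the threshold with its 2-fold limit, but 3 of the 7 had an unadjusted p below 0.05 by edgeR, beside 11.5% of all rows. These were CIDEC, ADIPOQ and PLIN4, at log2 fold changes of 0.89, 0.63 and 0.47 (adjusted p = 0.214, 0.291 and 0.379 by edgeR). In CIDEC and ADIPOQ the groups did not overlap, which was so in 17.1% of all rows. Their summed level was 11900 normalized counts in 3-8, 6830 in 10-8 and 5080 in 10-9, against 5374 in 3-1, 6144 in 3-3 and 4827 in 10-16. The sum for steer 10-9 was below those of low-NFMP steers 3-1 and 3-3, while its ADIPOQ (1016) and CIDEC (524) were above those of every low-NFMP steer (947 and 456 at most). The summed fibroblast markers (PDGFRA, COL1A1, COL3A1 and DCN) ran from 11774 to 14559 at a high NFMP and from 9060 to 11982 at a low NFMP, the endothelial ones (PECAM1, VWF, CDH5 and KDR) from 811 to 1155 and from 794 to 1030, and the macrophage ones (CD68, CD163, CSF1R and CD14) from 239 to 482 and from 262 to 489. Within these lists single genes differed in direction. PDGFRA was at -0.51 on the log2 scale (adjusted p = 0.408 by edgeR) without overlap of the groups, CSF1R at 0.73 and CD14 at 0.57, both also without overlap, and CD163 at -0.56. The part of these cells in the SIRT4 result was not tested.

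The steer labels begin with 3 or 10, a number whose meaning the labels do not give. Among the steers labelled 3, SIRT4 had 355 normalized counts in the high-NFMP steer and a mean of 105 in the 2 low-NFMP steers, a log2 ratio of 1.76. Among those labelled 10 it had a mean of 315 in the 2 high-NFMP steers and 99.9 in the low-NFMP steer, a log2 ratio of 1.66. With that number as a term the log2 fold change was 1.71, and with age as a term it was 1.79 (adjusted p = 0.00762 and 0.0388 by edgeR).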

How the data were processed

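RNA of 6 LT samples was sequenced from 3′ libraries, and the authors deposited raw counts of reads for each gene symbol. Their methods name Tophat2 with HTSeq on UMD3.1 in one place and Bowtie2 in another, and the processing notes in the labels name Bowtie2 and bedtools. The sources used here do not give which of these made the counts or whether strand was used. The 176 rows of repeated symbols were kept as separate rows.

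Counts were filtered with edgeR 4.0.16 in R 4.3.3 (minimum count 10, minimum total 15), which kept at least 99.8% of each library's counts, scaled by TMM factors (0.915 to 1.08) and compared by the quasi-likelihood test, with Benjamini-Hochberg adjustment over 15039 rows. The intervals come from the fitted change and its F statistic. The threshold for a call, after the study's methods, was an unadjusted p below 0.05 with more than a 2-fold difference. The members and gene lists were chosen with earlier results of these data known. Genes were named by a rule: the sirtuins, their snRNA neighbours, the 3 nearest genes on each side of SIRT4, listed genes past the threshold, the 2 most counted genes of each list, and the 5 profiles most like SIRT4. Other list genes and the hosts of snRNA genes were chosen after seeing their values. Likeness used log2(normalized count + 0.5). Neighbours and gene types were read from RefSeq (ARS-UCD2.0), in which all 7 sirtuin symbols were found. It is not the assembly of the study, so no coordinates are given. No sequence is printed.

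The alternatives were RLE factors, library totals, no filter, a filter of 10 counts in each library, DESeq2 1.42.0, quantile normalization of log2(count + 1) with limma 3.58.1, the label number or age as a term, the subtractions and each steer left out. The fits were also run on simulated data with 200 changed genes, and the outcome is not given here. Nothing says how the steers were related, and the p-values measure the spread between these 6 steers. The reads carry no molecular identifiers.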

Additional observations from a re-analysis of the deposited data

How the results depend on the processing

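The log2 fold change of SIRT4 kept its direction and its call in 15 of 16 alternatives, and was 0.21 with the counts of both snRNA genes subtracted, where the difference of its log2 ratio to the other 6 sirtuins became -0.0052. Without 1 steer it lay between 1.59 and 1.77, and that ratio's difference between 1.42 and 1.67. The snRNA genes stayed past the threshold in all 14 alternatives, LOC112442111 between 2.21 and 2.67 and LOC112442110 between 1.91 and 2.17 without 1 steer. The adjusted p of SIRT4 and of both snRNA genes was above 0.05 with limma. The count of sirtuins past the threshold was 1 in all 14. The median log2 fold change of the other 6 ranged from 0.11 (without steer 10-9) to 0.38 without 1 steer. It was 0.42 with age and 0.17 with the label number as a term. The number of listed partner genes past the threshold was 2 with library totals alone, 4 without a filter, 2 with limma after quantile normalization, 3 with age as a term (HIC1, PPARGC1A and PARP3) and between 1 and 4 without 1 steer, and HIC1 was among them each time.

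Several log2 fold changes that were not past the threshold changed sign. Most were near 0, but that of NMRK2 was 0.41. SIRT1 was at -0.050 with library totals, -0.027 without a filter, -0.012 with limma and between -0.25 and 0.25 without 1 steer. SIRT5 was at 0.26 with age and between -0.18 and 0.12 without 1 steer. Without 1 steer SIRT2 lay between 0.13 and 0.44, SIRT3 between 0.26 and 0.49, SIRT6 between 0.085 and 0.64 and SIRT7 between 0.27 and 0.68, with no change of sign. SIRT2 was at 0.0996 with the label number and SIRT6 at 0.84 with age. With library totals, FOXO3 was at -0.048 and SDHA at -0.046. Without a filter FOXO3 was at -0.021. With limma, RPS19BP1 was at 0.0335 and SDHA at -0.0099. With the label number, NMRK2 was at -0.033, RPS19BP1 at 0.086, FOXO3 at -0.076 and SDHA at -0.061. With age, RPS19BP1 was at 0.23, FOXO3 at -0.10 and PDHA1 at 0.089. Without 1 steer, NMRK2 lay between -0.089 and 0.79, NAMPT between -0.36 and 0.033, RPS19BP1 between -0.18 and 0.21, FOXO1 between -0.14 and 0.042, FOXO3 between -0.18 and 0.32, SDHA between -0.028 and 0.15, and PDHA1 between -0.28 and 0.051. The cause of these changes was not tested.

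Levels per kilobase of coding sequence were not run, since no coding lengths were used here. SIRT6, with 12 to 29 counts a steer, had the widest interval of the 7 sirtuins. No paired analysis was possible because the labels number no replicates (the order of the samples gave the numbers used here). The first label number is shared by unequal numbers of steers and was fitted as a term.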
